A study of Mus musculus with 2 samples.

Results

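A list of 10 symbols fixed the genes described here, C-type lectin receptors and Toll-like receptors of innate immune cells: *Clec4e*, *Clec4d*, *Clec4n*, *Clec7a*, *Clec10a*, *Mrc1*, *Tlr2*, *Tlr4*, *Tlr7* and the co-receptor *Cd14*. Of these, 9 of the 32285 genes in the files were analysed, and *Clec7a* was not analysed here. The genes were taken by symbol, and their levels were followed over cell types and over 2 days of muscle injury. Wild-type male C57BL/6J mice of 14 weeks received 100 µL of 1.2% BaCl2, a toxic salt that kills myofibers in the absence of infection, in the quadriceps, and muscle was taken at day 1 or day 3. Cells of 5 mice were pooled, cryopreserved as mononuclear cells without myofibers, and sequenced as 1 library per day, so each value below has 1 library behind it and no difference between days has a replicate check or a p-value.

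C-type lectin receptors and Toll-like receptors are pattern recognition receptors, with which myeloid cells detect sugars, lipids and nucleic acids of microbes and material released by dying host cells. The activating lectins Clec4e, Clec4d and Clec4n signal through the adaptor Fcer1g, the kinase Syk and the Card9 complex, whereas Toll-like receptors recruit Myd88 or Ticam1. In sterile muscle injury neutrophils and monocytes enter first, and the monocytes become macrophages that clear debris as the muscle regenerates.

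Single-cell libraries held 74852240 UMIs (unique molecular identifiers, each counted as 1 RNA molecule) on day 1 and 102565783 on day 3. After filtering, 6735 cells on day 1 (median 9389 UMIs) and 4627 on day 3 (median 14548) were used, and the days shared 0 cell barcodes. The mitochondrial limit of 7.5% took out 277 barcodes on day 1 (3.76%) and 1804 on day 3 (27.2%). The lists of barcodes differed in length between the days (737280 and 6794880 barcodes). The paper describes 1 library chemistry for its samples, and whether the lists reflect another was not tested. Day cannot be told apart from library, mice or pool, nor from chemistry if that differed. Cells formed 14 clusters, made without the receptor genes and without the naming markers, and each cluster was named from its markers. In monocyte/macrophage-like cells the 11 markers of the class summed to 5036 and 10694 CPM (UMIs of the genes per 1000000 UMIs), and the 5 myofiber markers to 9.44 and 5.71. All 11 had UMIs there on both days, but also in neutrophil-like cells, where they summed to 303 and 3077 CPM. Having UMIs thus does not set the class apart. Monocyte/macrophage-like cells numbered 2614 on day 1 and 2137 on day 3, monocyte-like cells 956 and 674, neutrophil-like cells 2077 and 260, dendritic cell-like cells 346 and 430, and cells like fibroblasts or fibro/adipogenic progenitors (FAP-like) 642 and 820. Different clusters filled the monocyte/macrophage-like class on the days, namely those led by *Serpinb2* (1357 cells on day 1, 8 on day 3) and *Ppbp* (1207 and 11) on day 1, and those led by *Fcrls* (42 and 1128) and *Gpnmb* (8 and 990) on day 3. A cluster that comes mostly from 1 library may be that library rather than a cell type. The FAP-like class was likewise split by day (clusters of 631 and 6 cells, and of 11 and 814), whereas the dendritic cell-like class was 1 cluster present on both days.

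Levels are given as CPM, the UMIs of a gene per 1000000 UMIs of the same cells, with exact Poisson 95% intervals, and day 3 over day 1 as a log2 ratio with an exact binomial 95% interval. All intervals cover counting error only. A difference was called at 2-fold. Because 3′ UMIs were counted, levels are compared between cells and days for each gene and not between genes.

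In monocyte/macrophage-like cells, 5 of the 9 analysed receptor genes were at least 2-fold lower on day 3 than on day 1 (*Clec4e*, *Clec4d*, *Clec4n*, *Tlr2* and *Cd14*), where 5.75% of the 7710 genes with at least 500 UMIs were called in that direction. *Tlr7* was the 1 gene called higher, beside 19.7% of all genes. *Clec10a*, *Mrc1* and *Tlr4* stayed within 2-fold. The median log2 ratio was −1.99 over the 9 genes and 0.34 over all genes tested, and all 9 genes had at least 500 UMIs. The list was chosen with earlier results of these data known, so its shares beside all genes are a description only.

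**Figure D1:**
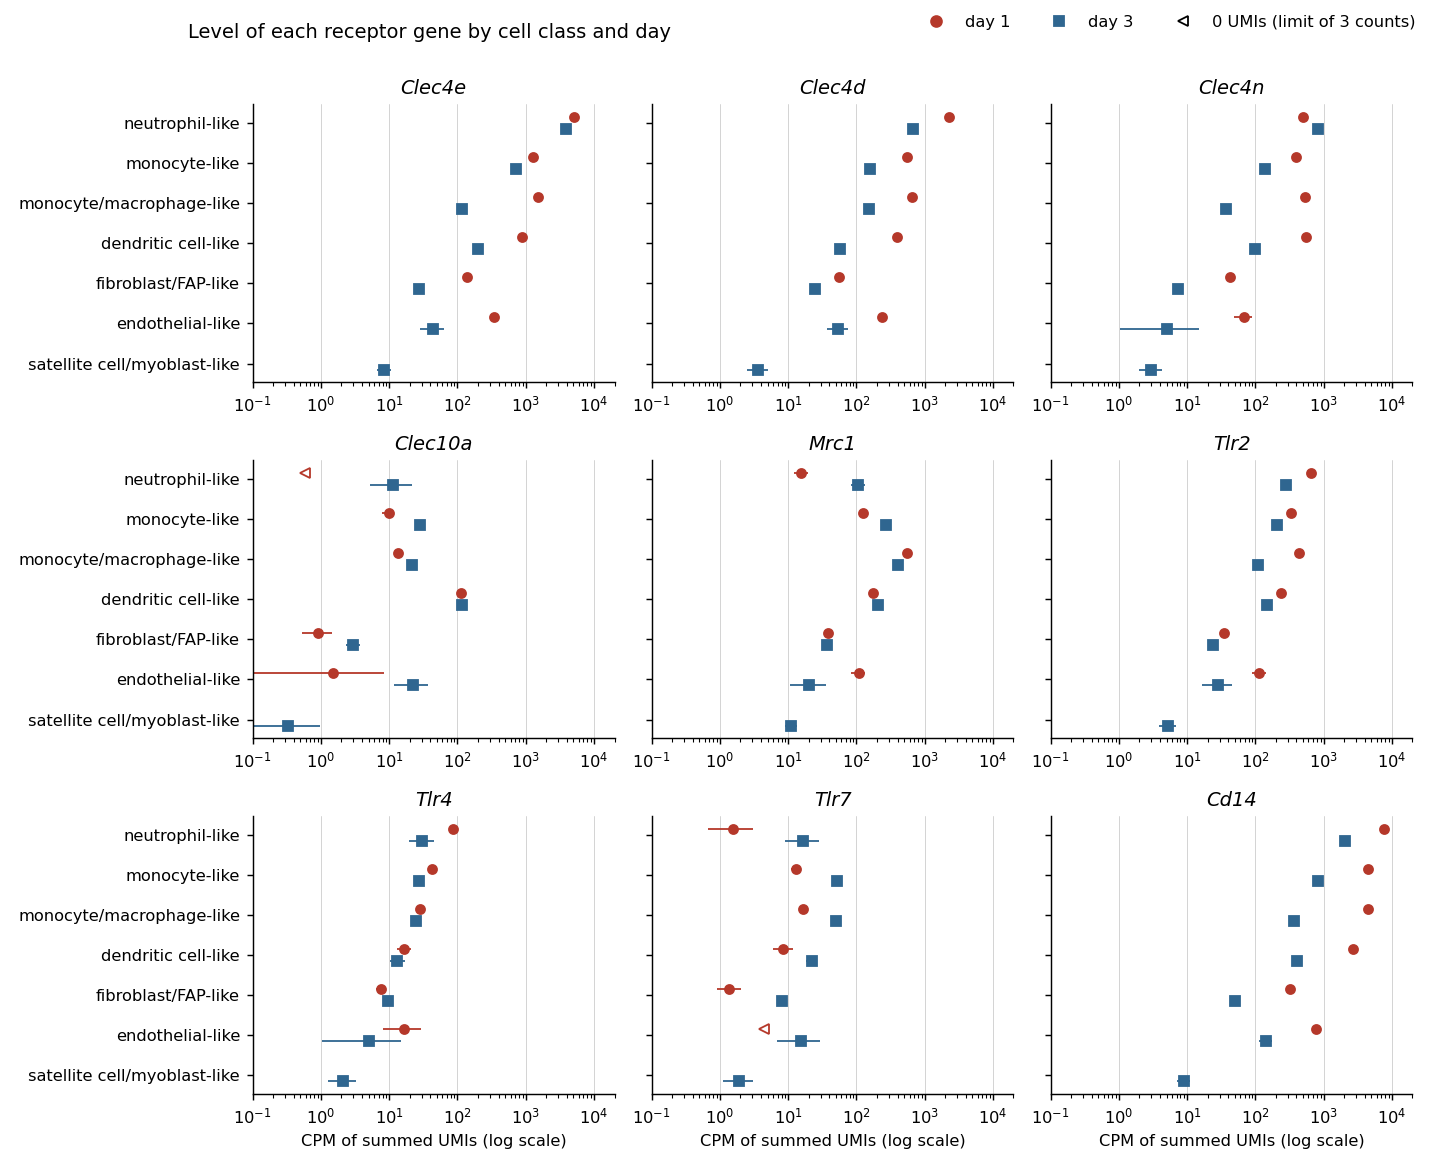
Level of each of the 9 receptor genes (UMIs per 1000000, log axis) in the named cell classes on day 1 and day 3, with exact Poisson 95% intervals. *Clec4e* and *Cd14* lie highest in neutrophil-like cells, *Mrc1* in monocyte/macrophage-like cells and *Clec10a* in dendritic cell-like cells, on both days.

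*Clec4e*, which encodes Mincle, a receptor for mycobacterial glycolipid and for a nuclear protein set free by dead cells, was measured at 1523 CPM (1510 to 1537) on day 1 and 118 CPM (114 to 121) on day 3 in monocyte/macrophage-like cells. Day 3 was 12.9-fold lower, with a log2 ratio of −3.69 (−3.74 to −3.65) from 48423 and 4497 UMIs. Only 41 of the 7710 genes had a lower ratio. *Clec4d*, which encodes the partner of Mincle in a receptor pair at the cell surface, was at 658 CPM on day 1 and 151 on day 3, a log2 ratio of −2.12 (−2.17 to −2.08). *Clec4n*, which encodes Dectin-2, a receptor for fungal mannans, was at 531 CPM on day 1 and 37.5 on day 3, a log2 ratio of −3.82 (−3.90 to −3.74) and 14.1-fold lower. The 3 activating lectins thus moved the same way with unequal size, *Clec4d* by the least, and the intervals of their ratios were far from 0.

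The 3 genes are neighbours. On mouse chromosome 6 (GRCm38) *Clec4n* (ENSMUSG00000023349) lies at chr6:123229843-123247021 on the + strand, *Clec4d* (ENSMUSG00000030144) at chr6:123262111-123275265 on the + strand and *Clec4e* (ENSMUSG00000030142) at chr6:123281789-123289870 on the − strand. The stretch from *Clec4n* to *Clec4e* spans 60.0 kb and held no gene of the files besides these 3. Further along the chromosome, *Clec4a1*, *Clec4a3* and *Clec4a2*, lectin genes singled out after their values were seen, had log2 ratios of −0.37, −0.16 and −1.26 in the same cells. The 250 bases before the RefSeq start (GRCm38.p6) of *Clec4e* and *Clec4d* are shown because these 2 neighbours were both lower on day 3, and those of *Mrc1* because its level was nearest to unchanged among the lectins shown with a RefSeq promoter. Capitals mark matches, on either strand, to 4 searched motifs of myeloid transcription factors: NF-kB (its 10-base consensus with free bases at the centre), AP-1 (TGANTCA), C/EBP (TTGCNNAA) and PU.1 (GAGGAAG).
Clec4e promoter, chr6:123289872-123290121 (− strand): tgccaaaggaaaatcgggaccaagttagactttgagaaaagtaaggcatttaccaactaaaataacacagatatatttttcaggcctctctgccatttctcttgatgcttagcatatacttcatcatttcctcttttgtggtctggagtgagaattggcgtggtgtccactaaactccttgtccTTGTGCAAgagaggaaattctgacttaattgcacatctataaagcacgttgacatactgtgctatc
Clec4d promoter, chr6:123261857-123262106 (+ strand): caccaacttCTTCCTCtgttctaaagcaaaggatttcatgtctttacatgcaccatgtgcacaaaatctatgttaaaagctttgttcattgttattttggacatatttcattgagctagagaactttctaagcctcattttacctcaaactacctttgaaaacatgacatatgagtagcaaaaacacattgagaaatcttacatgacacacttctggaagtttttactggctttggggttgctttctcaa
Mrc1 promoter, chr2:14229164-14229413 (+ strand): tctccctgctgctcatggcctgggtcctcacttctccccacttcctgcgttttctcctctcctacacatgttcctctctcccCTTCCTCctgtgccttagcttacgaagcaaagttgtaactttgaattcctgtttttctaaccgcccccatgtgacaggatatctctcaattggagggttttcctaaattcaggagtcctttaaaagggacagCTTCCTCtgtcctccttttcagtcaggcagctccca
The *Clec4e* window held 1 C/EBP match, 66 bases before the start, as did 9.55% of 27025 promoters. *Clec4d* held 1 PU.1 match at 241 bases and *Mrc1* held 2, at 168 and 36 bases, beside 10.4% of all promoters. No NF-kB match (1.40% of promoters) or AP-1 match (6.87%) was found in these windows. A match is a description of letters and not of a bound site.

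Across the classes, *Clec4e* stood highest in neutrophil-like cells on both days, at 5033 CPM on day 1 and 3957 on day 3. On day 1 the order went on with monocyte/macrophage-like (1523), monocyte-like (1290) and dendritic cell-like cells (889), with no overlap of intervals. On day 3 monocyte-like cells (726) came second and stood above dendritic cell-like (203) and monocyte/macrophage-like cells (118). Monocyte-like cells were 14.6% of day 3 cells and held 32.9% of the *Clec4e* UMIs, while monocyte/macrophage-like cells were 46.2% and held 32.1%. On day 1 the monocyte/macrophage-like class held 51.5% of them as 38.8% of the cells. Such shares also follow the depth of the cells, with day 1 medians of 11584 UMIs in monocyte/macrophage-like and 2155 in neutrophil-like cells. *Clec4n* had its highest level on day 1 in dendritic cell-like cells (547 CPM, 526 to 569), an interval that overlapped that of monocyte/macrophage-like cells. *Clec4d* on day 3 was at 160 CPM in monocyte-like and 151 in monocyte/macrophage-like cells, with overlapping intervals.

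**Figure D2:**
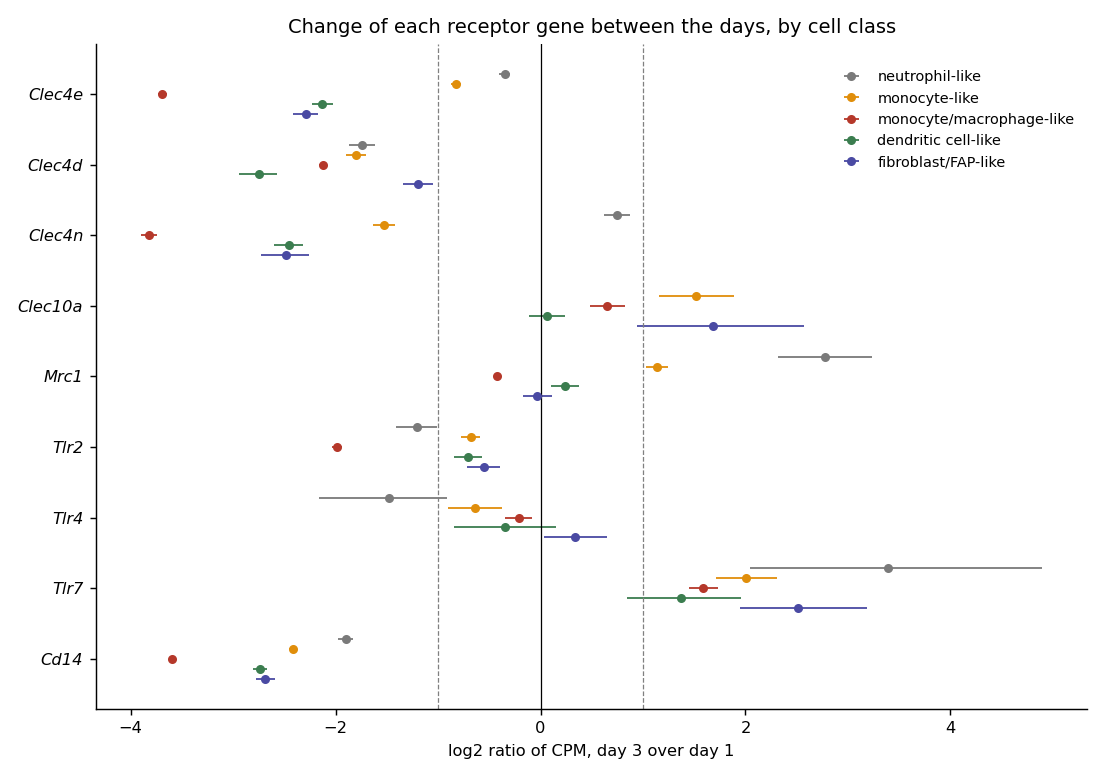
Log2 ratio of day 3 over day 1 for each receptor gene in 5 cell classes, with exact binomial 95% intervals and dashed lines at 2-fold in either direction. *Clec4d* and *Cd14* lie below the lower line in all 5 classes. In FAP-like cells the ambient estimate of free RNA was 120% and 153% of the *Clec4d* UMIs and 88.0% and 161% of those of *Cd14*. In neutrophil-like cells *Clec4d* was within 2-fold (2323 and 1227 CPM) without cells of 3000 UMIs or more. *Tlr7* lies above the upper line in all 5, from 8 and 13 UMIs in neutrophil-like and 26 and 195 in FAP-like cells. *Clec10a* has no point in neutrophil-like cells, where day 1 held 0 UMIs.

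*Clec10a* and *Mrc1* encode lectins that bind and take up glycans, galactose-type sugars for Clec10a and mannose for the mannose receptor Mrc1 (CD206), and both are widely used as markers of alternatively activated macrophages. In monocyte/macrophage-like cells *Clec10a* was at 13.6 CPM on day 1 and 21.4 on day 3, a log2 ratio of 0.65 (0.48 to 0.82). *Mrc1* was at 548 CPM and 409 CPM, a log2 ratio of −0.42 (−0.45 to −0.39). Neither reached 2-fold, and they moved in opposite directions. *Mrc1* had its highest level in monocyte/macrophage-like cells, which held 85.7% of its UMIs on day 1 and 80.1% on day 3. *Clec10a* was highest in dendritic cell-like cells, at 111 CPM on day 1 and 116 on day 3, a log2 ratio of 0.06 (−0.11 to 0.24). These cells were 5.14% of all cells on day 1 and held 47.6% of the *Clec10a* UMIs, and 9.29% with 34.8% on day 3. Within the class *Clec10a* was uneven on day 1, when the tenth of cells with most of its UMIs held 87.1% of them, against 64.3% on day 3.

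*Tlr2*, which encodes the receptor for bacterial lipoproteins, was at 435 CPM on day 1 and 110 on day 3 in monocyte/macrophage-like cells, a log2 ratio of −1.99 (−2.04 to −1.94). *Tlr4*, the receptor for lipopolysaccharide, was at 28.3 and 24.4 CPM, a log2 ratio of −0.21 (−0.35 to −0.08). *Tlr7*, an endosomal receptor for single-stranded RNA, went the other way, from 16.7 to 50.4 CPM, a log2 ratio of 1.59 (1.45 to 1.73) and 3.01-fold higher. Of all genes, 8.77% had a higher ratio than *Tlr7*. *Cd14*, the surface co-receptor that passes lipopolysaccharide to Tlr4, was at 4393 CPM on day 1 and 362 on day 3, a log2 ratio of −3.60 (−3.63 to −3.58) and 12.1-fold lower. *Cd14* and its receptor partner *Tlr4* thus had unlike ratios in the same cells.

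**Figure D3:**
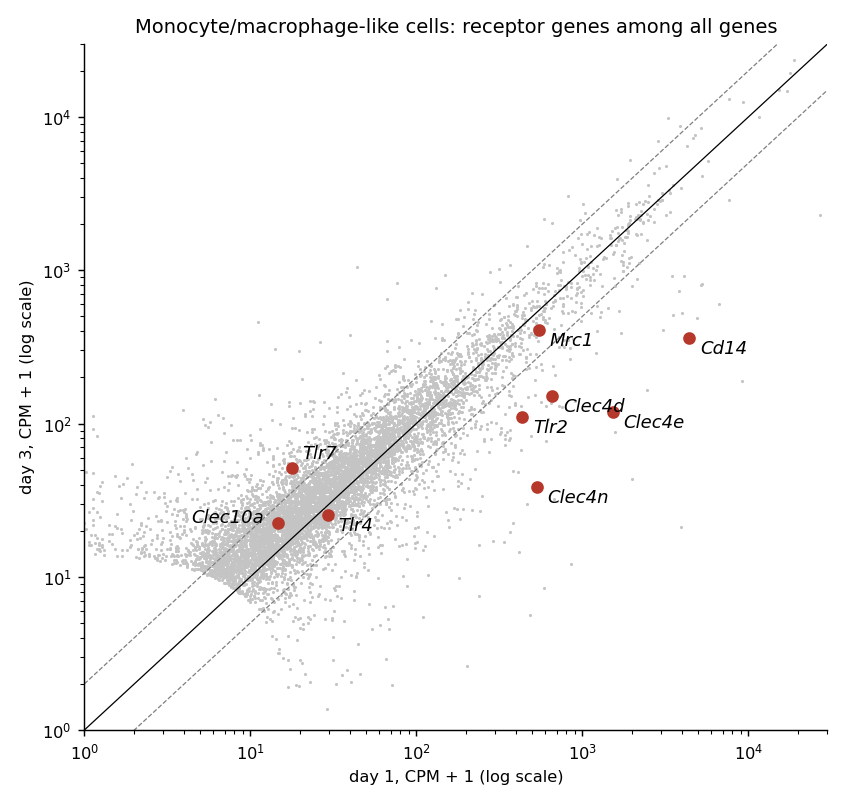
Level of 7710 genes in monocyte/macrophage-like cells on day 1 (x axis) and day 3 (y axis), as UMIs per 1000000 plus 1 on log axes, with the 9 receptor genes marked and named. *Clec4e*, *Clec4n* and *Cd14* lie at the lower edge of the cloud, with 41, 39 and 43 genes at a lower ratio.

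*Tlr4* had its highest level on day 1 in neutrophil-like cells (87.0 CPM), followed by monocyte-like (42.4) and monocyte/macrophage-like cells (28.3). On day 3 the intervals of these 3 classes overlapped from neighbour to neighbour (30.7, 27.3 and 24.4 CPM). *Tlr7* was highest in monocyte/macrophage-like and monocyte-like cells on both days, with overlapping intervals. *Tlr2* and *Cd14* were highest in neutrophil-like cells on day 1, at 656 and 7679 CPM. Both stayed highest there on day 3, at 284 and 2054 CPM. The *Cd14* intervals in monocyte-like (4434) and monocyte/macrophage-like cells (4393) overlapped on day 1.

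Within the monocyte/macrophage-like class the receptors split the clusters of the same day. On day 1 the cluster led by *Serpinb2* had *Clec4e* at 2011 CPM (1989 to 2033), *Tlr2* at 567 and *Cd14* at 5750, and the cluster led by *Ppbp* had 1034 (1018 to 1050), 301 and 3053. *Clec10a* was lower in the *Serpinb2* cluster, at 7.13 CPM (5.88 to 8.57), than in the *Ppbp* cluster, at 19.9 (17.7 to 22.2). *Mrc1* stood at 364 and 739 CPM in the same order, and it was among the 10 leading genes of the *Ppbp* cluster. On day 3 the cluster led by *Fcrls* was above that led by *Gpnmb* for *Clec4e* (214 and 44.1 CPM), *Clec4n* (64.4 and 15.8), *Mrc1* (626 and 234) and *Cd14* (447 and 291). *Clec4d* was the reverse, at 134 CPM (129 to 140) in the *Fcrls* cluster and 160 CPM (155 to 166) in the *Gpnmb* cluster. *Tlr7* did not separate them, at 50.2 and 50.1 CPM, and neither did *Tlr4*, at 23.9 and 24.4 CPM with overlapping intervals. Both day 1 clusters lay above both day 3 clusters for *Clec4e*, *Clec4d*, *Clec4n*, *Tlr2* and *Cd14* and below both for *Tlr7*. The direction of these 6 genes thus did not rest on 1 cluster. Each cluster came mostly from 1 library, so this is no check between libraries.

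**Figure D4:**
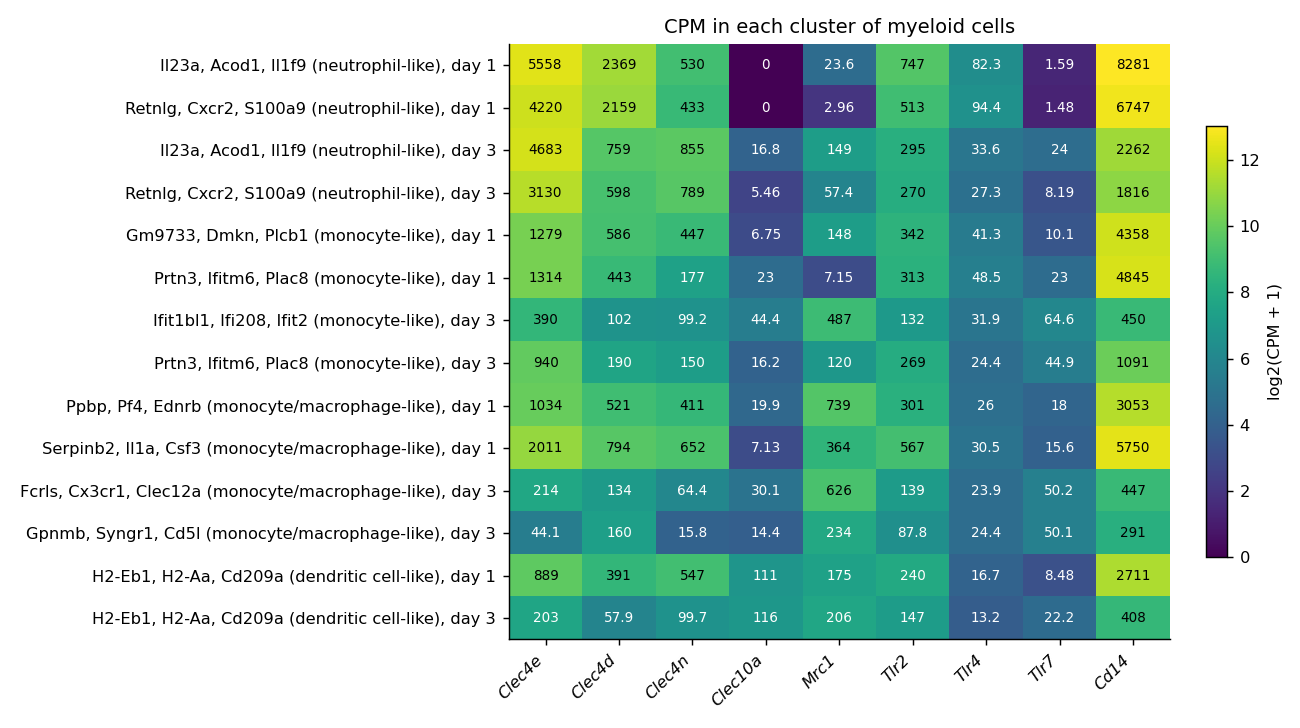
Level of the 9 receptor genes (UMIs per 1000000, colour on a log scale) in the myeloid clusters of each day, each named by its leading gene. *Cd14* is near 5750 in the *Serpinb2*-led cluster of day 1 and 291 in the *Gpnmb*-led cluster of day 3.

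Neutrophil markers moved in the same direction in the monocyte/macrophage-like class. On day 1 all 9 of the list had UMIs there and summed to 1216 CPM, and on day 3 8 of 9 did, at 130 CPM, against 87409 and 25362 CPM in neutrophil-like cells. RNA outside cells, read from barcodes of at most 100 UMIs, carried *Clec4e* at 1586 CPM on day 1 and 180 on day 3, and *Cd14* at 2845 and 227. The ambient part of any receptor gene, scaled from markers of other cells, was at most 2.86% of its UMIs in monocyte/macrophage-like cells. With that part subtracted the *Clec4e* log2 ratio was −3.71. It was −3.83 when the 363 and 171 cells with the highest doublet scores were removed and the rest clustered anew. That changed the class itself, to 1866 cells on day 1 and 2059 on day 3, so the part of doublets was not tested.

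A cell is more likely to show a UMI when it is sequenced more deeply, and monocyte/macrophage-like cells had medians of 11584 UMIs on day 1 and 16498 on day 3. Shares of cells with a UMI were therefore also taken after thinning every cell to 3000 UMIs, which left out 97 cells on day 1 and 33 on day 3. *Clec4e* was seen in 94.9% of monocyte/macrophage-like cells on day 1 and 44.7% on day 3, and in 86.9% and 21.4% after thinning. *Clec4n* was seen in 80.5% and 26.4%, and in 61.9% and 9.41% after thinning. *Cd14* went from 98.7% to 86.0%, and from 97.2% to 50.6% after thinning, so its difference in share was larger at equal depth. *Tlr7* went from 17.3% to 52.1%, and from 4.69% to 14.3% after thinning. *Tlr4* was seen more often on day 3 without thinning (25.6% and 32.1%) and about as often with it (7.31% and 6.84%). *Mrc1* likewise changed order, from 65.1% and 73.1% to 49.9% and 46.3%.

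**Figure D5:**
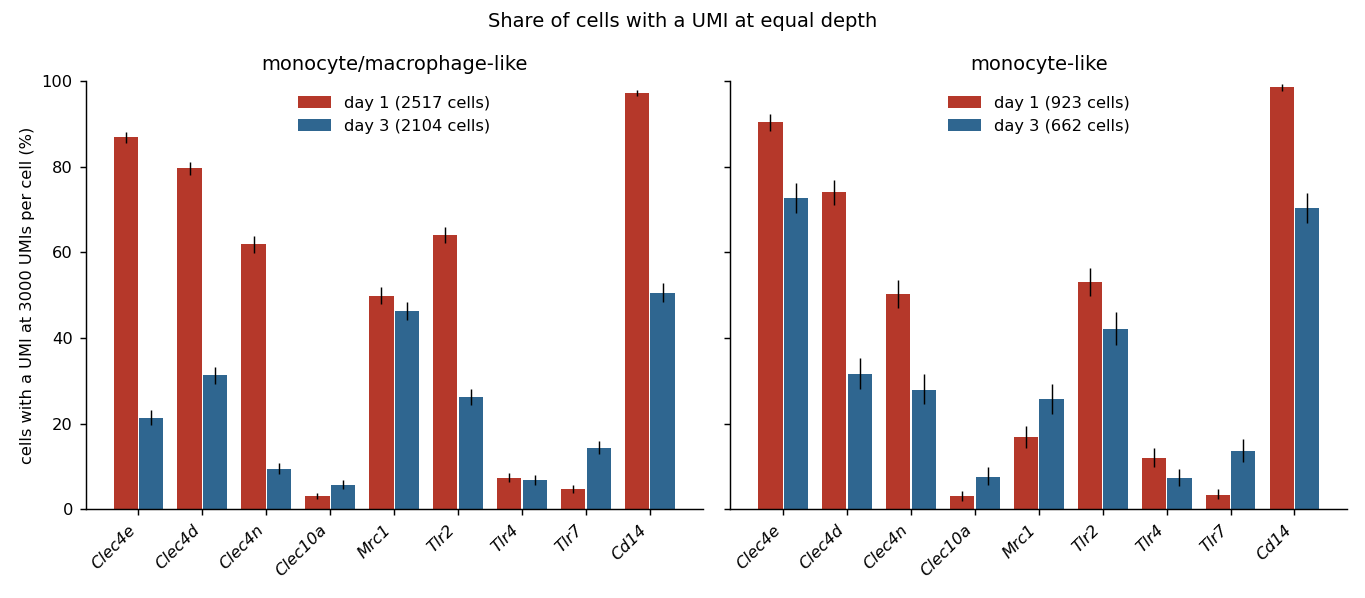
Share of cells with a UMI of each receptor gene after thinning to 3000 UMIs per cell, in monocyte/macrophage-like and monocyte-like cells on day 1 and day 3, with Clopper-Pearson 95% intervals. *Clec4e* goes from 86.9% to 21.4% in monocyte/macrophage-like cells and from 90.5% to 72.8% in monocyte-like cells.

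For comparison, the shares were also read in satellite cell/myoblast-like cells, which are not myeloid. By the ambient estimate, free RNA on day 3 amounted to 33.0% (*Tlr4*) to 212% (*Clec10a*) of their receptor UMIs. Whether these cells lack every receptor was not tested. On day 3 (201 cells, median 44223 UMIs) their thinned shares ran from 0% to 2.99%, the last for *Cd14*, and their levels were 8.43 CPM for *Clec4e* and 8.98 CPM for *Cd14*. On day 1 only 6 such cells were found, and FAP-like cells (median 27909.5 UMIs) showed *Clec4e* in 13.2% and *Cd14* in 21.3% after thinning. The monocyte/macrophage-like shares of all 9 genes were above the FAP-like shares of the same day.

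A thinned monocyte/macrophage-like cell showed on average 4.55 of the 9 receptor genes on day 1 and 2.12 on day 3. Cells with 5 or more were 56.1% and 4.94%, and cells with none were 0.0795% and 10.3%. In satellite cell/myoblast-like cells of day 3 the mean was 0.0896. Among cells with a *Clec4e* UMI, *Clec4d* was seen in 81.8% on day 1 and 41.0% on day 3, and among cells without it in 65.5% and 28.6%. *Clec4n* was seen in 64.3% with and 45.5% without *Clec4e* on day 1, and in 18.4% (14.9 to 22.3) and 6.96% on day 3. *Mrc1* was also seen more often beside *Clec10a*, in 75.3% of cells with and 49.1% without *Clec10a* on day 1, and in 70.0% and 44.9% on day 3. *Mrc1* was seen less often with *Clec4e* (47.7%) than without it (64.2%) on day 1, and on day 3 the intervals overlapped (43.2%, 38.6 to 48.0, and 47.1%, 44.7 to 49.6). *Cd14* and *Tlr4* showed no such split on day 3, with *Tlr4* in 6.5% of cells with and 7.2% of cells without *Cd14*.

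Monocyte-like cells had genes called in both directions. At least 2-fold lower on day 3 were *Clec4d* (559 and 160 CPM), *Clec4n* (396 and 137) and *Cd14* (4434 and 832), 3 of the 9 genes beside 2.91% of 3783 genes. At least 2-fold higher were *Clec10a* (9.79 and 28.0 CPM), *Mrc1* (125 and 274) and *Tlr7* (13.1 and 52.5). Of the 7 receptor genes that had at least 500 UMIs in this class, as the background genes do, 3 were called lower and 1, *Mrc1*, higher, the latter beside 7.45% of all genes. *Clec4e*, at 1290 and 726 CPM, had a log2 ratio of −0.83 (−0.88 to −0.78), and *Tlr2* and *Tlr4* had −0.68 and −0.64. Neutrophil markers in this class summed to 2857 CPM on day 1 (9 of 9 with a UMI) and 2049 CPM on day 3 (8 of 9). Monocyte markers summed to 2448 and 4474 CPM, 5 of 5 on each day. Monocyte/macrophage markers summed to 3125 and 4709 CPM, 11 of 11 on each day. The part of neutrophils or macrophages in these ratios was not tested. Day 1 cells came mostly from the cluster led by *Gm9733* (743 cells), and 245 of the day 3 cells from a cluster led by interferon genes such as *Ifit1bl1*, so only the cluster led by *Prtn3* held many cells of both days (195 and 404). In that cluster alone, a comparison added after the data were seen, *Clec4d* (−1.22) and *Cd14* (−2.15) were still called lower beside 2.88% of 1562 genes, and *Mrc1* (7.15 and 120 CPM from 14 and 421 UMIs, 4.02, 3.30 to 4.95) was higher, from too few UMIs to be set beside the 3.59% of these genes called in that direction. On day 3 a *Mrc1* UMI was seen in 20.3% of the cells of that cluster, and the tenth of cells with most of them held 87.2%. *Clec4n* was at −0.23 there, *Clec10a* at −0.51 (−1.09 to 0.09) and *Tlr7* (23.0 and 44.9 CPM) at 0.96, just under 2-fold.

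In dendritic cell-like cells 4 of the 9 genes were at least 2-fold lower on day 3, beside 5.09% of 2536 genes. *Clec4e* was at 889 and 203 CPM, *Clec4d* at 391 and 57.9, *Clec4n* at 547 and 99.7 and *Cd14* at 2711 and 408. *Tlr7* (8.48 and 22.2 CPM) was 2.59-fold higher from 38 and 111 UMIs, and of the 7 receptor genes with at least 500 UMIs 0 were called higher, beside 5.52% of all genes. *Tlr2* was at −0.71, and the interval of *Tlr4* (−0.84 to 0.15) held 0. Neutrophil markers in this class summed to 1409 CPM on day 1 (9 of 9 with a UMI) and 156 CPM on day 3 (8 of 9). Dendritic cell markers summed to 576 and 516 CPM, with a UMI of 8 of 8 on each day. Only 5 of the 8 were raised in the cluster, *Flt3*, *Cd209a*, *Ccr7*, *Wdfy4* and *Batf3*. Raised means at least 2-fold above the lower quartile of the clusters and seen in at least 10% of its cells. Monocyte/macrophage markers summed to 3402 and 4590.5 CPM, 11 of 11 on each day, and the part of either cell type in these ratios was not tested.

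Neutrophil-like cells held the highest *Clec4e* level of any class on both days, yet their day 3 values rested on few cells. Of the 260 cells of day 3, 30 had 3000 UMIs or more and held 398644 UMIs, more than the 383853 UMIs of the other 230. In those 30 cells neutrophil markers summed to 1809 CPM against 49824 in the 230, and monocyte/macrophage markers to 5571 CPM against 487. All 83 *Mrc1* UMIs and all 9 *Clec10a* UMIs of day 3 neutrophil-like cells lay in the 30. So did 8 of their 13 *Tlr7* UMIs, and the whole class held 8 *Tlr7* UMIs on day 1. Over the whole class, 4 genes were called lower (*Clec4d*, *Tlr2*, *Tlr4* and *Cd14*) and 3 higher (*Clec10a*, *Mrc1* and *Tlr7*) at any count. Of the 5 with at least 500 UMIs, 3 were lower and 0 higher, beside 19.4% and 18.1% of 1448 such genes. *Clec10a* had 0 UMIs on day 1, which at 3 counts allows up to 0.144% of these shallow cells to carry a UMI and sets no limit on cells that express it.

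Without cells of 3000 UMIs or more, a comparison added after the data were seen, 1781 and 230 neutrophil-like cells remained. *Clec4e* was then at 5124 CPM on day 1 and 7529 on day 3, a log2 ratio of 0.56 (0.50 to 0.61), where the whole class gave −0.35 (−0.40 to −0.29). *Clec4n* was at 504 and 1620 CPM, a log2 ratio of 1.69 (1.55 to 1.82) and 3.22-fold higher, against 0.74 in the whole class. *Cd14* (7722 and 3694 CPM, −1.06) and *Tlr4* (86.9 and 26.1 CPM, −1.67, from 319 and 10 UMIs) were called lower, and *Clec4n* and *Tlr7* (5 UMIs on each day) higher. Of the 5 with at least 500 UMIs, 1 was lower (*Cd14*) and 1 higher (*Clec4n*), beside 7.37% and 6.78% of 1018 such genes. *Clec4d* (2323 and 1227 CPM) was at −0.92 and *Tlr2* (657 and 461) at −0.51, both within 2-fold. *Clec10a* had 0 UMIs on both days and *Mrc1* 15 and 0. *Clec4n* was therefore higher on day 3 in these cells, while it was 14.1-fold lower in monocyte/macrophage-like cells.

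FAP-like cells, which are not myeloid, showed low levels of the same receptors. *Clec4e* was at 136 CPM on day 1 and 27.7 on day 3, and *Cd14* at 319 and 49.6. By the ambient estimate, free RNA amounted to 115% and 228% of the *Clec4e* UMIs of the class and 88.0% and 161% of those of *Cd14*, and a value above 100% means that the estimate exceeded what was counted. The UMIs were uneven, with 76.9% of those of *Clec4e* and 78.0% of those of *Cd14* on day 1 in the tenth of cells with most of them, and the part of free RNA in these levels was not tested. For *Tlr4* (7.54 and 9.56 CPM) the ambient part was lower, 35.3% and 43.6%. Of the 6 receptor genes with at least 500 UMIs, 4 were called lower and 0 higher, beside 8.10% and 16.0% of 7670 such genes. *Clec10a* (17 and 72 UMIs) and *Tlr7* (26 and 195 UMIs) were higher from fewer counts. Their ambient parts were 109% and 143% for *Clec10a* and 56.4% and 73.6% for *Tlr7*. Endothelial-like cells (94 and 105) held from 0 to 521 UMIs of each gene per day. Only 1 of the 9 genes, *Cd14*, had at least 500 UMIs there, and it was called lower, beside 10.6% of 348 such genes called lower and 3.16% called higher. Erythroid markers in this class summed to 2479 CPM on day 1 and 5.08 on day 3, and T/NK cell markers to 112 and 727 CPM, so its values were not read further.

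The other genes of these pathways were counted in monocyte/macrophage-like cells from lists. Of 35 other C-type lectin genes 11 had at least 500 UMIs, of which 4 were called lower and 2 higher. *Olr1*, which encodes a scavenger receptor for oxidised lipoprotein, was at 47.3 and 11.3 CPM (−2.06), *Klra2* at −1.71 and *Clec4a2*, an inhibitory lectin, at 312 and 130 CPM (−1.26). *Clec12a*, an inhibitory receptor for uric acid crystals, was at 35.3 and 212 CPM (2.58) and *Clec2i* at 1.72, with *Clec12a* itself a leading gene of a day 3 cluster. Of 9 other Toll-like receptors 3 had at least 500 UMIs. *Tlr8* (1.07 and 16.7 CPM, 3.95) and *Tlr13* (24.1 and 68.7 CPM, 1.51), which sense RNA in endosomes as *Tlr7* does, were called higher, and *Tlr1*, the surface partner of *Tlr2*, was at −0.36.

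All 13 genes of lectin receptor signalling had at least 500 UMIs, and *Bcl10*, a subunit of the Card9 complex, was the 1 called (171 and 69.7 CPM, −1.29). *Fcer1g*, the adaptor of the 3 activating lectins, was at 2956 and 2848 CPM, a log2 ratio of −0.05 (−0.07 to −0.04), *Syk* at −0.63 and *Card9* at 0.28. Of 25 partners and signalling genes of Toll-like receptors 23 had at least 500 UMIs, with *Slc15a3* called lower (359.7 and 127 CPM) and *Cd180* (17.0 and 108 CPM, 2.66) and its partner *Ly86* (35.5 and 97.6 CPM, 1.46) called higher. *Ly96*, which binds lipopolysaccharide with *Tlr4*, was at −0.20, *Myd88* at −0.74 and *Unc93b1*, which carries *Tlr7* to endosomes, at 0.48. *Fcer1g*, *Syk*, *Card9*, *Ly96*, *Myd88*, *Unc93b1* and *Tlr1* are named as direct partners of the receptors and were chosen after their values were seen.

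Genes with a like pattern were sought over 13 class-by-day groups among 10388 genes, by Pearson's correlation of log2(CPM + 1), as a description, since the groups share 2 libraries. *Clec4e* was most like *Ccr1* (0.988), a chemokine receptor, and *Slc7a11* (0.982). *Clec4n* was most like *Il1b* (0.973), the inflammatory cytokine, and *Tlr2* most like *Osm* (0.987), a cytokine of the interleukin-6 family. *Clec10a* had *Il21r* (0.976) and *H2-DMa* (0.969), which acts in class II antigen presentation, and *Mrc1* had *Nxpe5* (0.955) and *Lgmn* (0.941), a lysosomal protease. *Clec4d* and *Cd14* shared the same first gene, *Rab20* (0.989 and 0.981). *Tlr4* had *Pilra* (0.95) and *Tlr7* had *Ndufaf3* (0.961). Among the receptors, *Clec4e* and *Cd14* correlated at 0.96, *Clec10a* and *Tlr7* at 0.74, and *Tlr7* and *Clec4e* at 0.11.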

How the data were processed

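Single-cell 3′ RNA libraries of quadriceps mononuclear cells, 1 for day 1 and 1 for day 3 after BaCl2 injection, were analysed from the deposited files, which hold raw UMI counts of all barcodes made by the authors with Cell Ranger 5.0.0 and the mm10 build per the submitters' processing notes. The 7367 (day 1) and 6640 (day 3) barcodes with most UMIs were filtered to at least 1000 UMIs, at least 200 genes and at most 7.5% mitochondrial UMIs, and 6735 and 4627 cells were kept. Cells were normalized with SCTransform (sctransform 0.4.2, Seurat 5.3.0, R 4.3.3) on 3000 variable features that left out the receptor genes, the pathway lists and the naming markers, and clustered with 10 principal components at a resolution of 0.8. Clusters were named from marker lists. Doublets were kept, since Scrublet called 2 and 0 cells at its own threshold (scanpy 1.11.5). In an alternative the 363 and 171 cells with the highest scores were removed. Summed counts per class and day gave CPM, and the log2 ratio had 0.5 added to each count. Shares of cells carry Clopper-Pearson 95% intervals. The share of ambient RNA in a class was estimated from collagen genes and *Dcn* (from *Csf1r*, *C1qa*, *C1qb* and *Lyz2* in FAP-like cells). Counts of called genes were set beside all genes with at least 500 UMIs in the same cells. With 1 library per day no test between days was made.

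The receptor genes and the pathway and marker lists were chosen with earlier results of these data known. From each pathway list the 3 highest and 3 lowest log2 ratios past 2-fold in monocyte/macrophage-like cells were named, and for each receptor the 2 genes with the highest correlation were found, of which at least 1 is given. The ratio and its interval were tested on simulated counts of monocyte/macrophage-like cells (7710 genes) and neutrophil-like cells (1448 genes). In each class 100% of 200 changed genes were called. Their simulated log2 changes of 1.5 or 3 lay well past the 2-fold rule, and the counts carried counting error only. The check therefore covers the arithmetic and not variation between libraries, mice or cell mixtures. Promoter sequences come from RefSeq (GRCm38.p6), and those of 4 of the 9 genes were searched. These were *Clec4e*, *Clec4d*, *Mrc1* and *Tlr2*, the last with no match and not shown. *Cd14*, on chromosome 18, was left out of the search. Gene positions are those of GRCm38. The alternatives covered the filters, normalization, number of components, resolution, naming, doublets, ambient RNA, scaling and depth.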

Additional observations from a re-analysis of the deposited data

Results flagged for a closer look

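For 3 receptor genes the log2 ratio of day 3 over day 1 had opposite signs in a pair of cell classes. *Clec4n* was at 0.74 in neutrophil-like and −3.82 in monocyte/macrophage-like cells. *Mrc1* was at 2.77 in neutrophil-like and −0.42 in monocyte/macrophage-like cells, with all 83 of its day 3 neutrophil-like UMIs in the 30 cells of 3000 UMIs or more. *Tlr4* was at 0.34 in FAP-like and −1.48 in neutrophil-like cells. With 1 library per day these differences between classes were not tested.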

How the results depend on the processing

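No paired analysis was possible because each day is 1 library of pooled cells from different mice. Counts of receptor genes past 2-fold, at any number of UMIs, were recomputed under 134 alternatives and stayed within 1.5 times in 126. The other 8 were as follows. In monocyte-like cells the 3 genes called higher became 1 with a minimum of 200 genes per 1000 UMIs and 1 in the cluster led by *Prtn3* alone. In neutrophil-like cells the 4 called lower became 2 when each cell took the name of its highest marker score and 2 without cells of 3000 UMIs or more. In dendritic cell-like cells the 1 called higher became 3 with log-normalization and 0 with the highest marker score. In FAP-like cells the 2 called higher became 1 with a minimum of 200 genes per 1000 UMIs and 1 with ambient RNA subtracted. For the settings that replace one set of cells by another, the cause was not tested.

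Of 594 log2 ratios under alternatives, 547 kept their side of 2-fold and 5 called ratios reversed. In neutrophil-like cells *Tlr2*, called lower, and *Clec4n*, within 2-fold, each kept their side in 4 of 12 alternatives, and in monocyte-like cells *Mrc1* did in 9 of 14 and *Clec10a* in 10 of 14. *Clec10a* in monocyte-like cells was at −0.51 in the *Prtn3* cluster alone, *Mrc1* in monocyte-like cells at −0.89 and *Clec10a* in FAP-like cells at −1.78 with a minimum of 200 genes per 1000 UMIs. In neutrophil-like cells *Clec10a* was at −0.0896 and *Mrc1* at −3.88 with the highest marker score, both bounds from a floor of 3 counts. In monocyte/macrophage-like cells all 9 ratios kept their direction and side of 2-fold in all 15 alternatives, with *Clec4e* from −4.40 to −2.84, *Clec4n* from −4.58 to −3.15, *Cd14* from −3.94 to −3.34 and *Tlr4* from −0.55 to −0.01. Centring on the median of all genes shifted ratios of that class by 0.34. *Clec4e* in neutrophil-like cells ranged from −0.34 to 0.80 and kept its negative sign in 4 of 12 alternatives. For neutrophil-like cells, calling cells at 10% of the 99th percentile and thinning to 3000 UMIs gave no value, as too few day 3 cells remained. A further 3 alternatives (monocyte-like cells added, the *Prtn3* cluster alone and deep neutrophil-like cells left out) were chosen after seeing the data.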
